A study of Rattus norvegicus with 12 samples.

Results

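Complex I of the respiratory chain is built mostly from subunits that the nucleus encodes, and the genes described here are the rows of the deposited expression table whose gene name follows the Nduf pattern for those subunits (Nduf, then a, b, c, s, v or ab, then a number; assembly factors named Ndufaf were not taken). Described here are 35 such rows with 34 distinct gene symbols, of 22431 genes in the table, and all 35 were among the 14170 genes tested. The libraries are poly(A) RNA from the prefrontal cortex of rats in early adolescence, 12 animals of the genotype the labels call WT. Of these, 4 animals had postnatal oxycodone exposure (PNO), 4 had in utero oxycodone exposure (IUO) and 4 were Saline controls. Every group drew 2 animals from each of 2 dams. Which dam bore which animal is not given, so littermates were treated as independent and the p values may be too low. The labels name oxycodone, an opioid agonist, at 15 mg/kg by oral gavage, in windows before pregnancy or after it up to postnatal day 21, and do not assign a window to a group. Age in days, sex and the interval since the last dose are not in the labels used here.

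Complex I takes electrons from NADH, passes them along iron-sulfur clusters in a peripheral arm that points into the mitochondrial matrix, and hands them to ubiquinone while a membrane arm pumps protons. A set of core subunits does the chemistry. The mitochondrial genome encodes the core of the membrane arm and the nucleus encodes the core of the peripheral arm together with many accessory subunits that hold the assembly in place. Neurons depend on oxidative phosphorylation for ion pumping and synaptic transmission.

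The rows comprised 6 core subunits, 9 accessory subunits of the peripheral arm, 18 rows for accessory subunits of the membrane arm, the acyl carrier subunit Ndufab1, and Ndufa4, which carries a complex I name but is known as a subunit of complex IV. Of the rows, 33 lie on autosomes and 2 on the X chromosome (Ndufa1 and Ndufb11). Ndufa10, Ndufb1 and Ndufb9 were not matched under those names and are not analysed here. The Ndufs5 symbol stands on a row of chromosome 5 and on a short row of chromosome 2. The only Ndufs6 row is annotated as a pseudogene on chromosome 2. The chromosome 2 row of Ndufs5 and the Ndufs6 row are uncertain, and the remaining 33 rows are given apart where these rows matter.

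In the deposited coordinates, whose genome build is not given in the sources used here, rows of other genes overlap some members. The same-strand row of Dazap1 contains all of Ndufs7, a core subunit that carries an iron-sulfur cluster, and Yjefn3 overlaps Ndufa13 by 1939 bases. In CPM, which are counts scaled to library size with TMM factors, Ndufs7 ran from 95.3 to 114 in PNO and from 105 to 122 in Saline, and Ndufa13 from 66.9 to 91.0 in PNO and from 82.1 to 92.9 in Saline.

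The letters that the known regulators of respiratory genes bind were looked up in the promoters, since the members moved together between libraries as described further on. RefSeq promoters (assembly GRCr8, 250 bases before to 50 bases after each annotated start) were matched by symbol for 32 of 33 members looked for. Both strands were searched. YY1 letters (ATGGCGG) stood in 10 of 32 member promoters, or 31.2%, and in 4.8% of all 33469 promoters. GABPA letters (CCGGAAG) stood in 7, or 21.9%, against 8.7% of all promoters, NRF1 letters (CGCATGC) in 3, or 9.4%, against 3.3%, and the estrogen-related receptor letters (AAGGTCA) in 3, or 9.4%, against 4.6%. The SP1 box (GGGCGG) stood in 13, or 40.6%, against 33.1%, and TATA letters (TATAAA) in 2, or 6.2%, against 14.2%. Median GC content was 56.8% in member promoters and 51.7% in all promoters. These matches are descriptions of the letters and not evidence of binding.

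There were 12 YY1 matches in these 10 promoters. Of the matches, 9 lay on the strand of the gene and 7 began after the annotated start. The matches after the start are printed with their flanks so that these can be compared: each stands with the YY1 letters in capitals and 10 bases on either side, 5′ to 3′ on the strand of the gene, with GRCr8 coordinates. The letters contain ATG, and whether a match is also the start of translation was not tested.
Ndufa13 (chr16:19560531-19560557, plus strand): tcctgaaagtATGGCGGcgtcgaaggt
Ndufa2 (chr18:28631839-28631865, minus strand): gctagcaaagATGGCGGccgcaagccg
Ndufa6 (chr7:115750283-115750309, minus strand): ccttagcaagATGGCGGccgcggccag
Ndufa9 (chr4:161374141-161374167, minus strand): gtgggagaagATGGCGGccgccgtccg
Ndufb8 (chr1:253362896-253362922, minus strand): gaaggtgaagATGGCGGcgtcccgggc
Ndufs4 (chr2:47794891-47794917, minus strand): ccacaggaagATGGCGGcggtctcaat
Ndufs7 (chr7:10110475-10110501, minus strand): cgaggccaagATGGCGGcgctggcggg

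The 250 bases before the start are shown for Ndufc2, among the members with the smallest p for PNO against Saline, and for Ndufa6, which had the smallest p for IUO against PNO. Capitals mark the SP1 box in Ndufc2, and in Ndufa6 the YY1, GABPA and NRF1 letters in that order. The SP1, YY1 and NRF1 matches are on the opposite strand.
Ndufc2 (chr1:161122940-161123189, plus strand): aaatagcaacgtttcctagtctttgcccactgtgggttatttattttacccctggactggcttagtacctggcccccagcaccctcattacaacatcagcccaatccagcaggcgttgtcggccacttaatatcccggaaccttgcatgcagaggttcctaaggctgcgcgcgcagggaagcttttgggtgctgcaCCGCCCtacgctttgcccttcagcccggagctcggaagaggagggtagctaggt
Ndufa6 (chr7:115750318-115750567, minus strand): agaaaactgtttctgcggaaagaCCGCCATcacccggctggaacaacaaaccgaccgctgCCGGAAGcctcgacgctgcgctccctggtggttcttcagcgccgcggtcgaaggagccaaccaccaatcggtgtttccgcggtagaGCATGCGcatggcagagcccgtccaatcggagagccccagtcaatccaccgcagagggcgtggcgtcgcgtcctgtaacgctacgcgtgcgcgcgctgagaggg

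The libraries held 49227533 to 60672246 counts, of which the members took 0.248% to 0.391% and mitochondrially encoded genes 15.1% to 18.9%. Markers of cortical excitatory neurons were present in every library (9 of 9 detected, summing to 3853 to 4530 CPM in PNO, 3734 to 4546 CPM in IUO and 3608 to 4829 CPM in Saline). Markers of neighbouring regions differed between libraries. The 9 olfactory bulb markers summed to 214 to 430 CPM in PNO, 95.8 to 467 CPM in IUO and 120 to 165 CPM in Saline, and were raised in PNO 1, PNO 3, PNO 4 and IUO 3. The 13 striatal markers summed to 334 to 2100 CPM in PNO, 366 to 1622 CPM in IUO and 334 to 719 CPM in Saline, and were raised in PNO 2, IUO 1, IUO 2 and Saline 2. No marker of either list was at 0 in all libraries. In bulk tissue, fewer cells of a type and less RNA per cell cannot be told apart, and this holds for every level below.

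Levels per length, in FPKM (fragment counts corrected for the length of the gene and the size of the library, as deposited), spanned a wide range. Ndufa8, a disulfide-stabilised subunit on the outer face of the membrane arm, had the highest mean over the 12 libraries, with 153 ± 12.4 FPKM in PNO, 182 ± 51.8 FPKM in IUO and 180 ± 10.1 FPKM in Saline (SD, n = 4 each). Next came Ndufb8 of the membrane arm, at 154 ± 15.7 FPKM in PNO, 177 ± 27.3 FPKM in IUO and 173 ± 8.35 FPKM in Saline. Ndufv2, an iron-sulfur core subunit, followed at 117 ± 12.1 FPKM in PNO, 139 ± 29.9 FPKM in IUO and 137 ± 12 FPKM in Saline. The Ndufa8 and Ndufb8 levels lay within each other's spread in all groups.

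At the low end, Ndufa3 of the membrane arm measured 6.18 ± 0.703 FPKM in PNO, 6.79 ± 1.74 FPKM in IUO and 6.49 ± 0.129 FPKM in Saline. The chromosome 2 row of Ndufs5 measured 5.56 ± 1.20 FPKM in PNO, 5.78 ± 1.83 FPKM in IUO and 6.79 ± 0.875 FPKM in Saline, while the chromosome 5 row measured 67.2 ± 4.46 FPKM in PNO, 78.9 ± 24.6 FPKM in IUO and 78.0 ± 5.13 FPKM in Saline. The Ndufs6 row was lowest, at 0, 62, 84 and 0 counts in PNO, 63, 67, 63 and 121 counts in IUO and 83, 77, 88 and 78 counts in Saline. It is listed at 0 in PNO 1 and PNO 4.

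**Figure D1:**
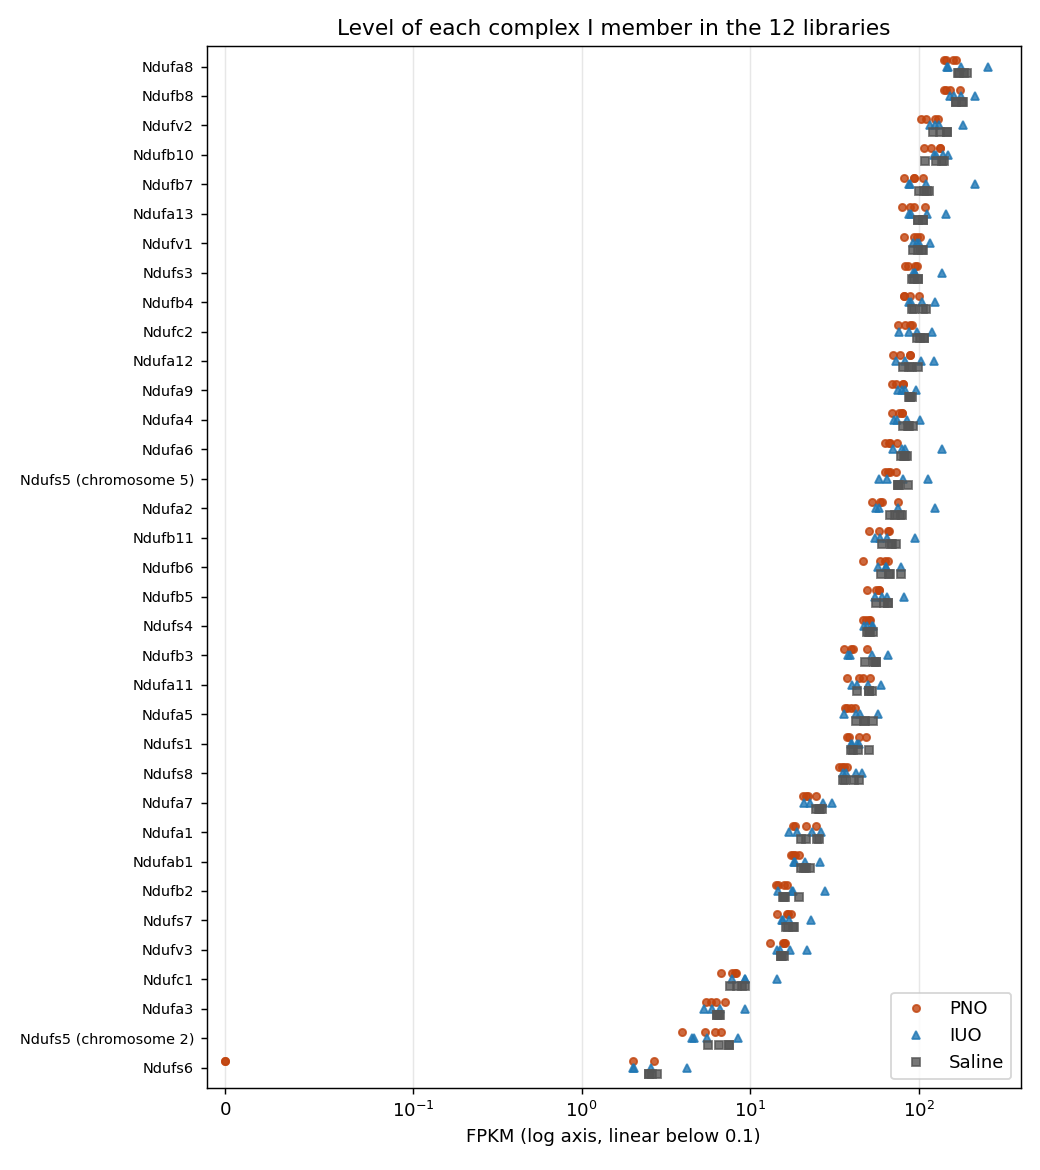
Each point is the FPKM of a member in a library (log axis, linear below 0.1), with PNO circles, IUO triangles and Saline squares, and members ordered by their mean over the 12 libraries. Ndufa8 (mean 172 FPKM), Ndufb8 (168) and Ndufv2 (131) lead, and Ndufs6 (2.17) is last.

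Among the core subunits, Ndufv1, which binds NADH and the flavin, averaged 93.5 ± 8.19 FPKM in PNO, 101 ± 10.5 FPKM in IUO and 100.2 ± 6.25 FPKM in Saline. Ndufs3, part of the ubiquinone-reducing module, averaged 89.9 ± 7.02 FPKM in PNO, 105 ± 21.9 FPKM in IUO and 95.2 ± 3.52 FPKM in Saline. Ndufs1, the largest iron-sulfur subunit, averaged 42.2 ± 5.17 FPKM in PNO, 41.8 ± 2.13 FPKM in IUO and 43.5 ± 5.16 FPKM in Saline. Each of these subunits had overlapping groups. Ndufs8, which also carries iron-sulfur clusters, averaged 35.4 ± 1.5 FPKM in PNO, 40.2 ± 4.79 FPKM in IUO and 39.4 ± 4.16 FPKM in Saline. Ndufs7 averaged 16.3 ± 1.26 FPKM in PNO, 17.8 ± 3.47 FPKM in IUO and 17.3 ± 0.961 FPKM in Saline. From high to low in FPKM the order was Ndufv2, Ndufv1, Ndufs3, Ndufs1, Ndufs8 and Ndufs7. Neighbouring Ndufv1 and Ndufs3 did not differ beyond their spread. The ranges of Ndufs1 and Ndufs8 overlapped in IUO and in Saline, and those of Ndufv2 and Ndufv1 barely overlapped in IUO. The Ndufs7 row, which lies inside Dazap1, had the longest length of the members implied by counts and FPKM, 6535 bases. In CPM, which are not corrected for length, the Saline means were 114.5 for Ndufs7, 114.8 for Ndufs3 and 76.4 for Ndufs8. The last place of Ndufs7 thus holds for FPKM only.

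The comparison of PNO with Saline asked what exposure labelled postnatal left in the cortex of early adolescents. The members were slightly lower in PNO. The log2 fold change was below 0 for 35 of 35 members, against 48.8% of all genes tested, and above 0 for 0, against 51.2%, with a member median of -0.20 and a median over all genes of 0.0068. No member passed an adjusted p of 0.05 by edgeR's quasi-likelihood test, adjusted over all 14170 genes, and no other gene did (0%). DESeq2 called 0 members and 119 genes (0.840%), and limma on log2(FPKM + 0.5) called 0 members and 1 gene. At an unadjusted p under 0.05 there were 5 members, against 11.0% of all genes, with 5 lower (4.22% of all genes were) and 0 higher (6.82%). The 5 were Ndufa9, Ndufc2, Ndufa5, Ndufb3 and Ndufab1. Fitted on PNO and Saline alone, 16 members reached an unadjusted p under 0.05, against 15.9% of all genes, and 0 members passed an adjusted p of 0.05 by edgeR, against 11 genes (0.0776%). All 4 PNO libraries lay below all 4 Saline libraries for 8 members, against 4.66% of all genes: Ndufa4, Ndufa5, Ndufa6, Ndufa8, Ndufa9, Ndufab1, Ndufc2 and the chromosome 5 row of Ndufs5.

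Striatal and bulb marker scores were set beside that direction. The striatal score (mean log2 CPM) ran from 3.54 to 4.69 in Saline. PNO 1, PNO 3 and PNO 4 lay inside that range, and PNO 2 lay above it at 6.51. With both scores as covariates, the members had a median log2 fold change of 0.04, 14 of 35 were below 0 (49.2% of all genes) and 0 reached an unadjusted p under 0.05 (4.20% of all genes). The bulb score was raised in 3 of 4 PNO libraries and 0 of 4 Saline libraries. It ran from 3.22 to 5.20 in PNO and from 2.81 to 2.94 in Saline (mean log2 CPM). Every PNO library was thus above every Saline library, and the covariate fit cannot tell group from bulb content in this comparison. In PNO 2, the PNO library that did not reach the cut for raised bulb markers, the members were lowest of all. Its bulb score, 3.22, was still above every Saline library. With the raised bulb libraries left out, which leaves PNO 2 alone for PNO, the median was -0.35. With 1 PNO library, that fit gives an effect size only. PNO 2 has raised striatal markers, and with the raised striatal libraries left out the median was -0.15, 34 of 35 members were below 0 (48.9% of all genes) and 3 reached an unadjusted p under 0.05 (6.67%). That number was 2 without PNO 2 (7.59% of all genes) or without Saline 2 (8.05%). It was 3 without PNO 1 (8.72%), Saline 3 (9.12%) or Saline 4 (8.79%), and 8 without PNO 3 (11.0%). Markers of other cells differed in level too. The 8 GABAergic neuron markers in the table, of 9 listed, summed to 645 to 687 CPM in PNO, 598 to 757 CPM in IUO and 476 to 609 CPM in Saline, and the 8 microglia markers to 324 to 356 CPM in PNO, 321 to 423 CPM in IUO and 361 to 451 CPM in Saline. None of these markers was at 0 in all libraries, and their part in the result was not tested.

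Ndufa9, which holds the joint between the peripheral and the membrane arm, measured 128, 112, 130 and 119 CPM in the PNO libraries, 127, 122, 134 and 156 CPM in the IUO libraries, and 141, 143, 145 and 152 CPM in the Saline libraries. Every PNO library was below every Saline library, and IUO 4 was above all others. The log2 fold change was -0.25 (SE 0.09, edgeR unadjusted p = 0.0116, adjusted p = 0.360) for PNO against Saline.

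Ndufc2, a membrane-arm subunit, measured 77.6, 66.6, 77.8 and 72.7 CPM in PNO, 75.5, 66.8, 84.5 and 106 CPM in IUO, and 93.1, 93.2, 88.3 and 93.0 CPM in Saline. PNO and Saline did not overlap, and IUO libraries lay on both sides of Saline. Its log2 fold change was -0.32 (SE 0.12, edgeR adjusted p = 0.403) for PNO against Saline.

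Ndufa5, an accessory subunit beside the ubiquinone module, measured 90.5, 86.3, 97.9 and 88.2 CPM in PNO, 98.5, 84.6, 105 and 136 CPM in IUO, and 111, 124, 103 and 116 CPM in Saline. Here too every PNO library was below every Saline library. The log2 fold change for PNO against Saline was -0.32 (SE 0.12, edgeR adjusted p = 0.409). Ndufb3, at the far end of the membrane arm, measured 39.2, 36.5, 50.2 and 41.1 CPM in PNO, 38.9, 38.6, 52.6 and 67.0 CPM in IUO, and 48.2, 55.7, 58.0 and 56.9 CPM in Saline. PNO 3 overlapped Saline. It had the most negative log2 fold change of the 33 rows for PNO against Saline, -0.39 (SE 0.16, edgeR adjusted p = 0.427).

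By arm, 6 of 6 core subunits were below 0 for PNO against Saline with a median log2 fold change of -0.12. All 9 accessory subunits of the peripheral arm were below 0 with a median of -0.25, and all 18 membrane-arm rows with a median of -0.20. The mitochondrial acyl carrier protein Ndufab1 measured 50.6 ± 2.41 CPM in PNO and 59.6 ± 2.60 CPM in Saline, a log2 fold change of -0.24 (SE 0.11, edgeR adjusted p = 0.448). Ndufa4 measured 222 ± 12.7 CPM in PNO and 258 ± 11.2 CPM in Saline, a log2 fold change of -0.22 (SE 0.11, edgeR adjusted p = 0.467). The smallest differences among the 33 rows were in Ndufv3 (-0.06, SE 0.12) and Ndufs1 (-0.07, SE 0.09).

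**Figure D2:**
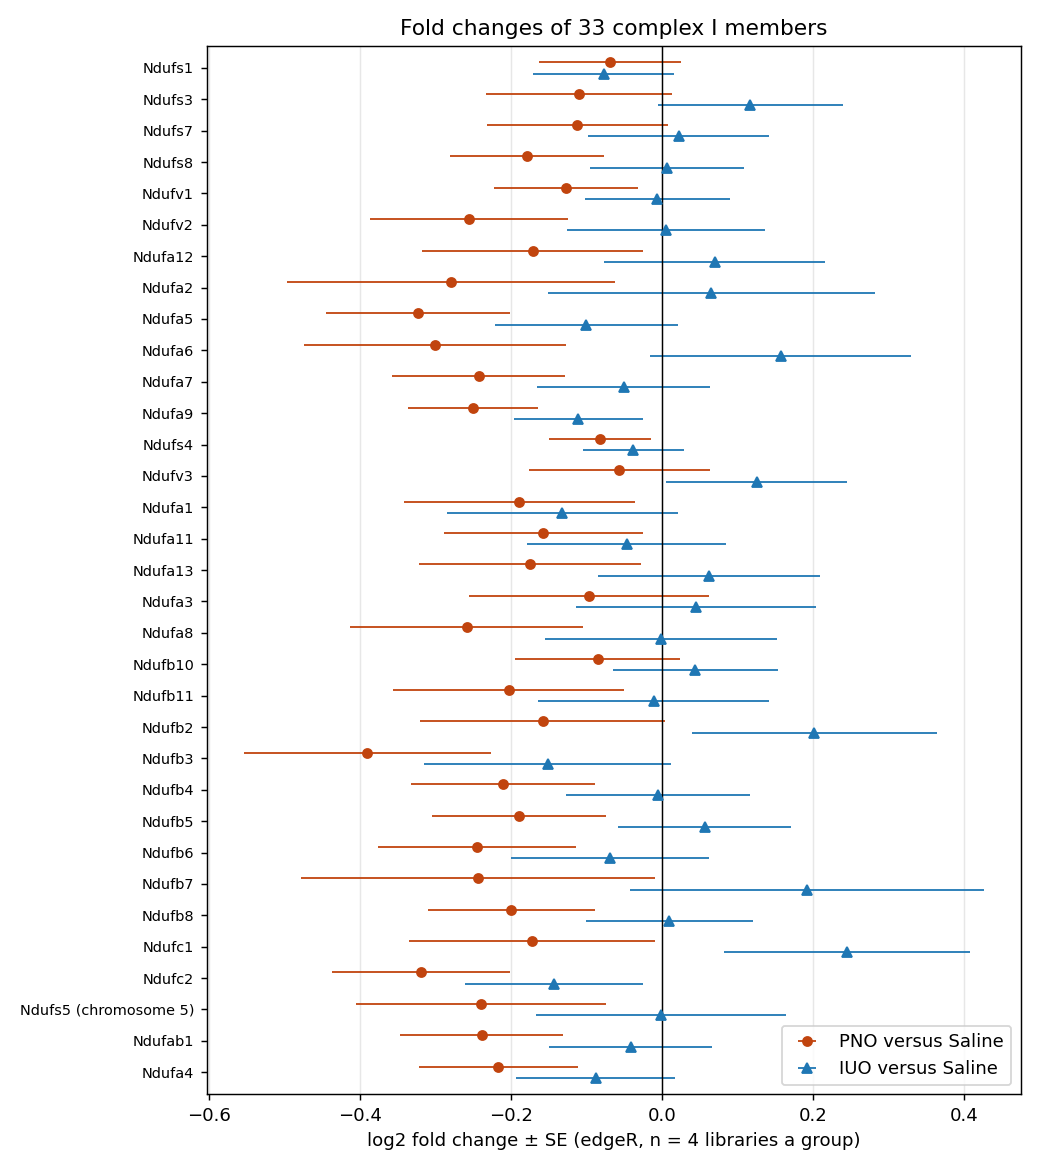
Points are log2 fold changes with their standard errors for 33 members (Ndufs6 and the chromosome 2 row of Ndufs5 left out), orange for PNO versus Saline and blue for IUO versus Saline. All 33 PNO values lie below 0, from -0.39 to -0.06, and the IUO values lie from -0.15 to 0.24 on both sides of 0.

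The comparison of IUO with Saline asked the same of the in utero exposure. The members were evenly divided: 18 of 35 had a log2 fold change below 0, against 43.6% of all genes, and 17 above 0, against 56.4%, and the median was -8.76e-04. No member passed an adjusted p of 0.05 by edgeR (smallest 0.998; 0% of all genes passed), 0 of 35 reached an unadjusted p under 0.05 (4.02% of all genes, 1.71% lower and 2.31% higher) and 0 had all 4 IUO libraries below or above all 4 Saline libraries (1.03% and 1.15% of all genes). DESeq2 called 0 members and 11 genes (0.0776%), with 0 members at an unadjusted p under 0.05 (4.57% of all genes). Without IUO 4, 34 of 35 members were below 0 (47.3% of all genes), the median was -0.16 and 9 reached an unadjusted p under 0.05 (9.005%). Without IUO 1 the count below 0 was 10 (43.7% of all genes) with 1 at an unadjusted p under 0.05 (3.76%), and without IUO 2 it was 10 (45.0%).

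Tissue markers also differed between the libraries of this comparison. Leaving out the raised striatal libraries (IUO 1 and IUO 2 among them) keeps only IUO 3 and IUO 4 for IUO. IUO 4 was the highest library for 33 of 35 members. In that fit 2 of 35 members were below 0 (49.3% of all genes), the median was 0.20 and 7 reached an unadjusted p under 0.05 (7.16%). Tissue markers and the weight of IUO 4 cannot be told apart there. With both scores as covariates 4 were below 0 (49.3% of all genes), the median was 0.14 and 6 reached an unadjusted p under 0.05 (7.78%). The 4 members with the smallest p were Ndufc1 at 0.24 (SE 0.16), Ndufa9 at -0.11 (SE 0.09), Ndufb2 at 0.20 (SE 0.16) and Ndufc2 at -0.14 (SE 0.12), each with an edgeR adjusted p of 0.998. Ndufc1, the partner of Ndufc2 in the membrane arm, was also the member farthest above 0, with 26.0, 31.5, 31.5 and 49.4 CPM in IUO and 27.9, 31.1, 26.5 and 31.4 CPM in Saline. IUO 4 was far above Saline, and IUO 1 was below it.

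IUO 4 stood apart from the other libraries in these genes. It was the highest of the 12 libraries for 33 of 35 members, and PNO 2 was the lowest for 21. The median over the 35 members of log2 CPM minus the Saline mean was -0.20, -0.34, -0.06 and -0.23 in PNO 1 to 4, -0.22, -0.21, -0.01 and 0.32 in IUO 1 to 4, and -0.09, 0.05, -2.84e-04 and 0.04 in Saline 1 to 4. IUO 1 and IUO 2 thus lay with PNO 1, PNO 2 and PNO 4, below Saline. PNO 3 and IUO 3 lay inside the Saline range, and IUO 4 lay above it. The member farthest up in IUO 4 was Ndufb7, an outer-face subunit of the membrane arm, with 50.5, 51.7, 63.9 and 126 CPM in IUO and 57.4, 66.5, 64.6 and 67.3 CPM in Saline. The 2 members not highest in IUO 4 were Ndufb6, with 60.1 CPM in IUO 4 and 60.9 CPM in Saline 3, and Ndufs1, with 129 CPM in IUO 4, inside the range of the other libraries.

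**Figure D3:**
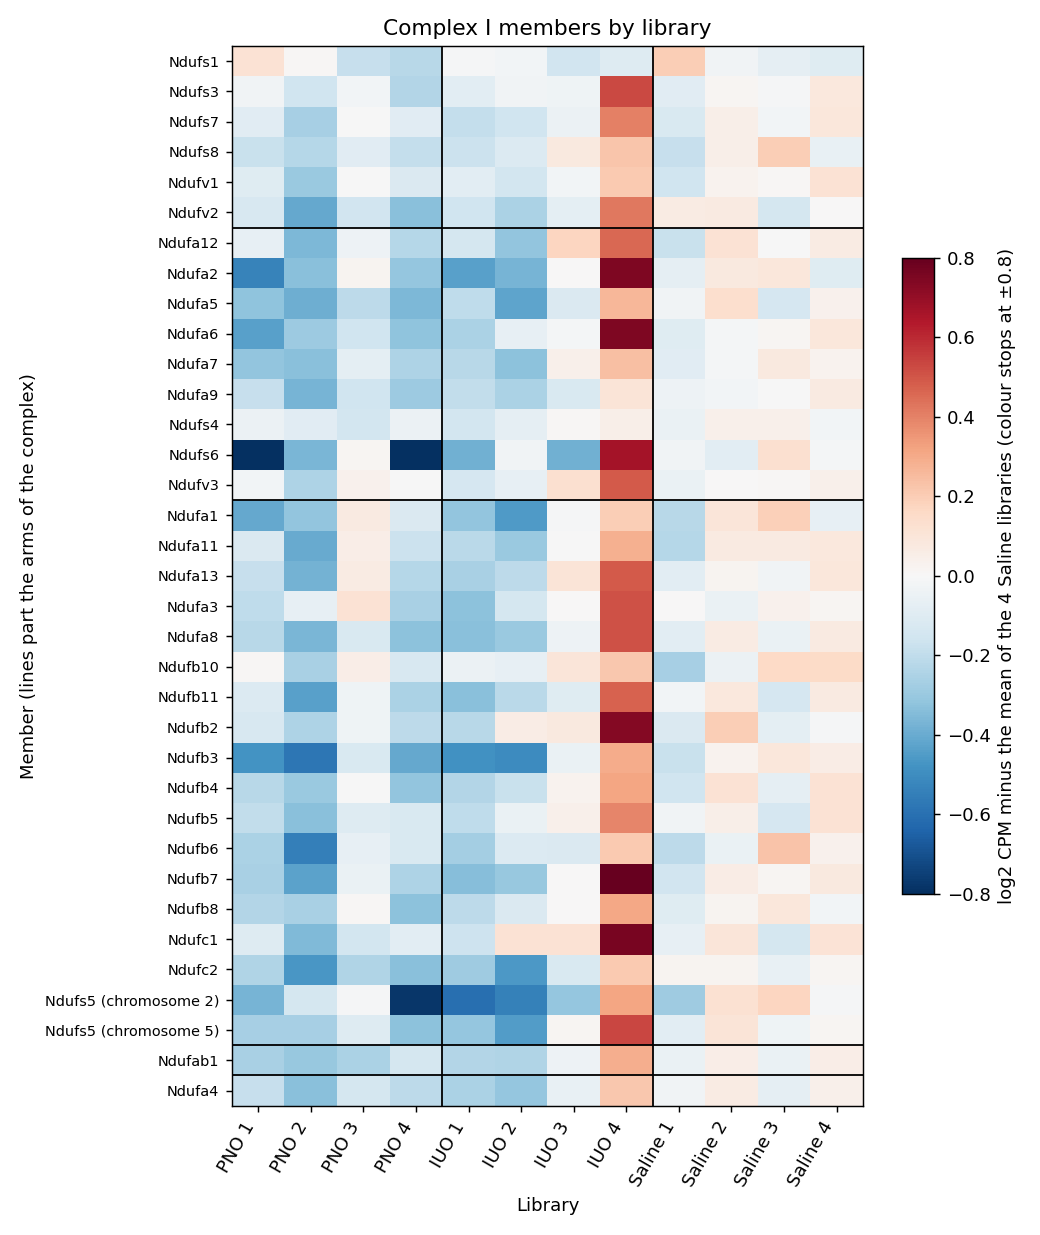
Colour gives log2 CPM minus the mean of the 4 Saline libraries for each of the 35 members (down the page, by arm) in each library (PNO, IUO, Saline), with colour stopping at ±0.8. PNO 1, PNO 2, PNO 4, IUO 1 and IUO 2 are mostly blue (lower), and IUO 4 is red (higher) for nearly all members.

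The spread of the members differed between groups. The median coefficient of variation of the 33 rows was 8.36% in PNO, 20.5% in IUO and 6.76% in Saline. Over the 7171 genes with a mean of at least 6 FPKM it was 8.67% in PNO, 12.5% in IUO and 9.36% in Saline. IUO 4 also had the lowest mean correlation with its own group (Pearson's r of log2 CPM across genes, which are not independent replicates, 0.961).

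Transcript length moved with the pattern. Lengths implied by the counts and FPKM were short for these genes, with a median of 1291 bases over 33 members and 3111 bases over all genes tested, and 22 of the 33 fell in the shortest of 4 classes of equal size into which all genes were divided by length. For PNO against Saline, 68.4% of genes in the shortest class had a log2 fold change below 0 with a median of -0.11, while in the longest class it was 29.6% with a median of 0.10. Across genes, Spearman's rho between length and log2 fold change was 0.33 over all genes tested and 0.43 over the 33 members, given as a description because genes share libraries. The slope of log2 CPM on log2 length, relative to the mean of the 12 libraries, was 0.04, 0.06, -0.02 and 0.02 in PNO 1 to 4, 0.05, 0.05, -0.02 and -0.10 in IUO 1 to 4, and 0.0028, -0.04, -0.0061 and -0.03 in Saline 1 to 4. The 5 libraries with the steepest positive slopes were the 5 in which the members were lowest, and IUO 4, with the steepest negative slope, was the one in which they were high.

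With a smooth trend on length removed from each library, the medians moved toward 0 in every library but IUO 3 and Saline 3. They were -0.09, -0.19, -0.04 and -0.18 in PNO 1 to 4, -0.12, -0.12, -0.03 and 0.18 in IUO 1 to 4, and -0.03, 0.01, 0.0098 and 0.04 in Saline 1 to 4. For PNO against Saline, 33 of 35 members were below 0 (50.4% of all genes) with a median log2 fold change of -0.12 and 6 at an unadjusted p under 0.05 (9.64%), and for IUO against Saline 20 were below 0 (47.2%) with a median of -0.0077.

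**Figure D4:**
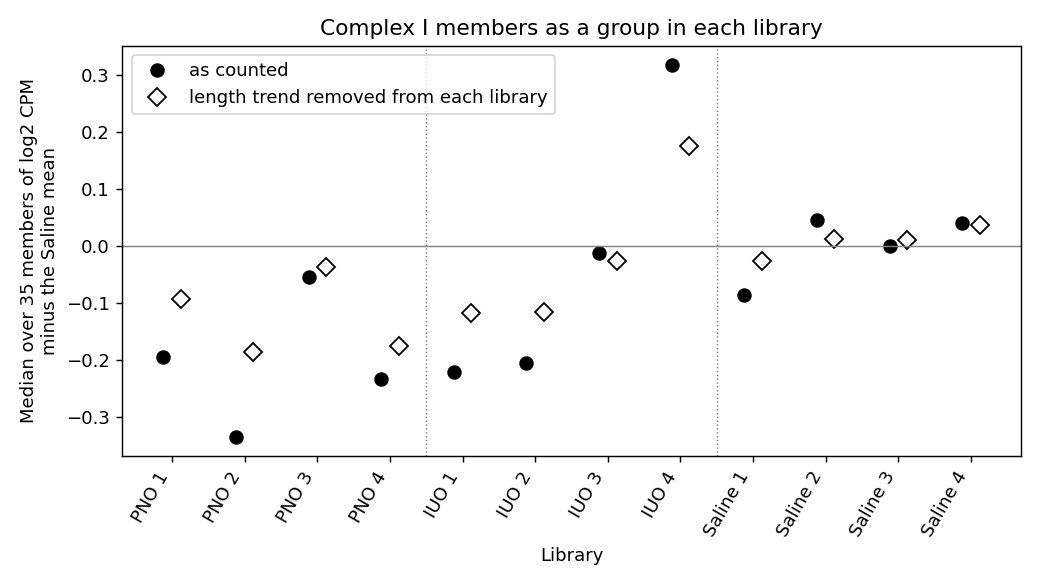
Each library's median over the 35 members of log2 CPM minus the Saline mean, as counted (filled circles) and with the length trend removed (open diamonds), for PNO, IUO and Saline. As counted the values run from -0.34 in PNO 2 to 0.32 in IUO 4, and with the trend removed from -0.19 to 0.18.

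The direct comparison of IUO with PNO set the exposures labelled in utero and postnatal side by side. Members were mostly higher in IUO: 34 of 35 had a log2 fold change above 0, against 50.8% of all genes, and 1 below 0, against 49.2%, with a median of 0.20. By edgeR, 0 members passed an adjusted p of 0.05 (smallest 0.714; 0% of all genes passed), and 3 reached an unadjusted p under 0.05 (6.73% of all genes), with 3 higher (3.67%) and 0 lower (3.06%). DESeq2 called 0 members and 8 genes (0.0565%), and limma on log2(FPKM + 0.5) called 0 members and 0 genes. None had all 4 IUO libraries above (1.85% of all genes) or below (1.78%) all 4 PNO libraries. Without IUO 4 the median was 0.06, 6 members were below 0 (50.6% of all genes) and 0 reached an unadjusted p under 0.05 (4.26%). The number at that level was 14 without IUO 1 (10.1% of all genes), 13 without IUO 2 (8.02%) and 6 without PNO 3 (5.96%). It was 2 without PNO 4 (5.08%) and 1 without PNO 1 (6.37%) or without PNO 2 (5.05%). With the raised striatal libraries left out, which leaves IUO 3 and IUO 4 for IUO, it was 22 (13.6%). With both marker scores as covariates it was 0 (3.37%).

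Ndufa6, a peripheral-arm subunit that docks an acyl carrier protein, measured 38.7, 44.2, 45.8 and 77.7 CPM in IUO, 34.2, 37.7, 41.4 and 37.1 CPM in PNO, and 43.3, 45.8, 46.8 and 49.2 CPM in Saline. IUO 1 fell inside the PNO range and IUO 4 far above it. Its log2 fold change for IUO against PNO was 0.46 (SE 0.17, edgeR unadjusted p = 0.0202, adjusted p = 0.714). Ndufc1 measured 26.0, 31.5, 31.5 and 49.4 CPM in IUO and 27.1, 22.8, 26.3 and 27.5 CPM in PNO, a log2 fold change of 0.42 (SE 0.16, edgeR adjusted p = 0.714). Ndufb2 measured 47.6, 57.7, 58.6 and 92.1 CPM in IUO and 50.7, 46.7, 54.2 and 48.0 CPM in PNO, a log2 fold change of 0.36 (SE 0.16, edgeR adjusted p = 0.714). IUO 1 lay inside the PNO range for both genes, and the other 3 IUO libraries lay above it. Ndufb5, also of the membrane arm, measured 70.2, 78.1, 83.2 and 106 CPM in IUO and 70.7, 64.1, 75.3 and 74.5 CPM in PNO, a log2 fold change of 0.25 (SE 0.11, edgeR adjusted p = 0.714). The 1 member below 0 was the core subunit Ndufs1, with 138, 136, 125 and 129 CPM in IUO and 150, 139, 122 and 119 CPM in PNO, a log2 fold change of -0.0082 (SE 0.09, edgeR adjusted p = 0.989), and its groups overlapped.

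The 7 mitochondrially encoded subunits, the core of the membrane arm, were far more abundant per length. For Mt-nd1, FPKM ran from 9718 to 11992 in PNO, from 9011 to 13130 in IUO and from 11296 to 12823 in Saline. For PNO against Saline 5 of 7 had a log2 fold change below 0 (48.8% of all genes), with a median of -0.09. It was 7 of 7 for IUO against Saline (43.6% of all genes, median -0.10). For IUO against PNO it was 4 of 7 (49.2% of all genes, median -0.02). None passed an adjusted p of 0.05 by edgeR. Mt-nd3 was the 1 subunit at an unadjusted p under 0.05 for PNO against Saline. It measured 708, 763, 757 and 798 CPM in PNO, 724, 771, 885 and 1187 CPM in IUO, and 1014, 959, 828 and 1025 CPM in Saline, so that all PNO libraries were below all Saline libraries, and IUO 4 was the highest. The log2 fold change for PNO against Saline was -0.34 (SE 0.14, edgeR adjusted p = 0.417). Mt-nd3 was the 1 subunit of the 7 that was highest in IUO 4. IUO 4 was the lowest of all 12 libraries for 5 of 7, which were Mt-nd1, Mt-nd2, Mt-nd4, Mt-nd4l and Mt-nd5. Mt-nd5 measured 4388, 4427, 4064 and 2707 CPM in IUO 1 to 4, against 3488, 3499, 4572 and 4116 CPM in Saline.

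Assembly factors build complex I and leave it once finished. Of the 18 tested, 12 had a log2 fold change below 0 for PNO against Saline (48.8% of all genes) with a median of -0.04. For IUO against Saline 12 were below 0 (43.6% of all genes) with a median of -0.02. For IUO against Saline 6 were above 0, and Ndufaf4, which helps assemble the ubiquinone module, had the largest log2 fold change of the 18. It measured 15.3, 16.7, 18.5 and 23.5 CPM in IUO, 11.1, 16.1, 8.57 and 9.53 CPM in PNO, and 11.2, 7.96, 10.1 and 7.91 CPM in Saline. All IUO libraries were above all Saline libraries. The log2 fold change was 0.99 (SE 0.21, edgeR unadjusted p = 3.14e-04, adjusted p = 0.998) for IUO against Saline and 0.71 (SE 0.20, edgeR adjusted p = 0.714) for IUO against PNO. Tmem126b, an assembly factor of the membrane arm, measured 22.4 ± 1.56 CPM in PNO and 26.1 ± 0.454 CPM in Saline (log2 fold change -0.22, SE 0.09, edgeR adjusted p = 0.412).

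Most subunits of the other complexes of the chain had log2 fold changes below 0 for PNO against Saline, and none passed an adjusted p of 0.05 by edgeR. Below 0 were 48.8% of all genes tested and 68.4% of genes in the shortest length class. The length trend was not removed for these lists. Complex II had 4 of 4 subunits below 0 (median log2 fold change -0.06), complex III 8 of 8 (median -0.16), complex IV 8 of 8 (median -0.25) and complex V 14 of 15 (median -0.20). Atp5mc3 encodes part of the proton-carrying ring of complex V. Its mean was 192 ± 7.46 CPM in IUO, 161 ± 10.8 CPM in PNO and 197 ± 13 CPM in Saline. For PNO against Saline the log2 fold change was -0.29 (SE 0.08, edgeR adjusted p = 0.305), and it was 0.25 (SE 0.07, edgeR adjusted p = 0.714) for IUO against PNO. Atp5mg, also of complex V, had 115 ± 8.24 CPM in PNO and 142 ± 6.29 CPM in Saline (log2 fold change -0.31, SE 0.11, edgeR adjusted p = 0.380). Cox7c of complex IV measured 44.8 ± 4.62 CPM in PNO and 55.0 ± 6.52 CPM in Saline (log2 fold change -0.29, SE 0.12, edgeR adjusted p = 0.417), and Uqcrb of complex III 56.2 ± 2.97 CPM in PNO and 69.8 ± 1.56 CPM in Saline (-0.31, SE 0.14, edgeR adjusted p = 0.448). Cox5a, also of complex IV, had 121 ± 10.2 CPM in PNO and 143 ± 7.98 CPM in Saline (-0.24, SE 0.10, edgeR adjusted p = 0.435). For IUO against Saline the medians were -0.0069, 0.0071, -0.03 and 0.01 for complexes II to V.

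Mitochondrial content and the use of glucose have genes of their own. Of 10 genes of the mitochondrial membranes, import and matrix, 8 had a log2 fold change below 0 for PNO against Saline (48.8% of all genes). Their median was -0.09. Tomm22, a receptor of the outer-membrane import pore, measured 103 ± 8.59 CPM in PNO and 121 ± 3.56 CPM in Saline (log2 fold change -0.24, SE 0.08, edgeR adjusted p = 0.355), and Vdac2, an outer-membrane channel, 182 ± 2.55 CPM in PNO and 203 ± 1.35 CPM in Saline (-0.16, SE 0.06, edgeR adjusted p = 0.412). In IUO, Tomm22 measured 117 ± 7.64 CPM and Vdac2 202 ± 11.1 CPM, with log2 fold changes against PNO of 0.19 (SE 0.08) and 0.16 (SE 0.06), each with an edgeR adjusted p of 0.714. Of 17 glycolysis rows, 14 were below 0 for PNO against Saline (48.8% of all genes) with a median of -0.08. Among them, Pgk1 measured 376 ± 21.8 CPM in PNO and 431 ± 9.69 CPM in Saline (-0.20, SE 0.07, edgeR adjusted p = 0.404). Aldoa, which splits fructose bisphosphate, measured 541 ± 173 CPM in PNO and 766 ± 148 CPM in Saline (-0.50, SE 0.21, edgeR adjusted p = 0.436).

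Regulators of mitochondrial biogenesis were divided in sign. Of 11 tested, 4 had a log2 fold change below 0 for PNO against Saline (48.8% of all genes) and the median was 0.13. Esrrg, the estrogen-related receptor gamma, which activates respiratory genes, measured 4.69, 4.63, 2.50 and 3.04 CPM in PNO, 3.82, 5.13, 2.05 and 1.44 CPM in IUO, and 1.56, 1.92, 2.00 and 1.34 CPM in Saline. All PNO libraries were above all Saline libraries, while IUO 4 lay inside the Saline range. The log2 fold change was 1.12 (SE 0.36, edgeR adjusted p = 0.355) for PNO against Saline and 0.86 (SE 0.36, edgeR adjusted p = 0.998) for IUO against Saline. Pprc1, a coactivator of the same programme, measured 25.5 ± 1.28 CPM in PNO and 19.9 ± 1.56 CPM in Saline (log2 fold change 0.35, SE 0.14, edgeR adjusted p = 0.417).

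Members with and without the YY1 letters in the promoter had medians close to each other. For PNO against Saline the median log2 fold change was -0.19 over the 10 members with the letters and -0.20 over the 22 without, for IUO against Saline it was -0.01 and 0.0019, and for IUO against PNO 0.17 and 0.20.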

How the data were processed

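Stranded poly(A) libraries were sequenced from 12 prefrontal cortices, 4 per group. The submitters' processing notes name HISAT2 and StringTie. Tool versions, genome build and annotation: not given in the sources used here. In the deposited table there are whole-number read counts per gene and library, and FPKM values, named so per the file headers. The authors' FPKM values were used for levels between genes and for a filter (mean of at least 0.5 FPKM over the 12 libraries, which left 14170 genes). The deposited counts, 49227533 to 60672246 per library, were tested with edgeR 4.0.16 (quasi-likelihood, TMM factors, 3 groups in 1 model, two-sided), with Benjamini-Hochberg adjustment over all genes tested and a threshold of 0.05. CPM used TMM-scaled library sizes, with a prior count of 2 for log2 CPM. The scripts were tested on simulated data. R 4.3.3, limma 3.58.1, DESeq2 1.42.0, Python 3.11.15, pandas 2.3.3 and matplotlib 3.10.9 were also used. Gene length was taken as the ratio of count to FPKM and total, and the length trend as a lowess curve with a span of 0.3.

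Nothing in the labels says more of the animals than 2 per dam. The p values thus set group differences against the spread between these animals, with littermates taken as independent. Samples were not treated as paired by replicate number. The correlation of deviations from the group means for same-numbered libraries ran from 0.05 to 0.12 for PNO with Saline, from 0.02 to 0.14 for IUO with Saline and from 0.06 to 0.41 for IUO with PNO. No values for differently numbered libraries stand beside these, so they neither show nor exclude a pairing.

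Of the rows that the naming pattern matched, 1 stayed in the fits over all genes and is not reported here; counts of members leave it out. The members and all gene lists were chosen with earlier results of these data known. Genes named with values were, in each comparison, the 4 members with the smallest p and the 1 farthest on the side opposite to the median, the core subunits, the 3 highest and 3 lowest by FPKM, and up to 2 genes per other list with an unadjusted p under 0.05. Ndufb6, Ndufb7, Ndufa11, Ndufa13, Ndufab1, Ndufa4, Ndufv3, the chromosome 5 row of Ndufs5, Mt-nd1 and Mt-nd5 were added after their values were seen. Alternatives were limma on log2(FPKM + 0.5), other pseudocounts, DESeq2, median-of-ratios factors, nuclear genes only, other filters, a fit of the 2 groups compared, robust estimation, the replicate block, removal of the length trend, marker scores as covariates, leaving out libraries with raised markers (mean log2 CPM over 0.75 above the median) and leaving out each library. Added after the data were seen were a member list without 2 uncertain rows, and IUO 4 left out with the length trend removed.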

Additional observations from a re-analysis of the deposited data

Results flagged for a closer look

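Of 108 groups of 4 libraries checked (35 members and the median over them, in 3 groups), 3 held a library whose gap to its nearest neighbour exceeded Dixon's 95% critical share of the group's range, and chance marks about 1 in 20 groups. Ndufs3, a core subunit, measured 165 CPM in IUO 4 while the other 3 IUO libraries lay between 108 and 112 CPM. Ndufc2 of the membrane arm measured 88.3 CPM in Saline 3 while the other Saline libraries lay between 93.0 and 93.2 CPM. Ndufa11, also of the membrane arm, measured 72.6 CPM in Saline 1 while the other Saline libraries lay between 89.1 and 89.9 CPM.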

How the results depend on the processing

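For PNO against Saline, the member median was above 0 only in the fit with marker covariates, and every other fit kept it below 0. The covariate fit cannot tell group from bulb content in that comparison. The direction in IUO against Saline depends on IUO 4 and on the striatal libraries. With 4 animals a group and dam unknown, small shared shifts cannot be resolved gene by gene. No alternative called any member in any comparison. Over all genes, calls for PNO against Saline, IUO against Saline and IUO against PNO numbered 119, 11 and 8 by DESeq2, and 0, 4 and 3 without the raised striatal libraries. They numbered 11 for PNO against Saline both in the fit of the 2 groups and with IUO 4 left out and the length trend removed. They were at most 1 in the other fits with more than 1 library in each group compared. Without the raised striatal libraries IUO 3 and IUO 4 are the only IUO libraries. Without the raised bulb libraries PNO 2 is the only PNO library, so only an effect size is given, a median of -0.35 for PNO against Saline. For PNO against Saline, members at an unadjusted p under 0.05 numbered 16 in a fit of the 2 groups alone, 0 with marker scores as covariates (14 below 0, median 0.037), 3 without the raised striatal libraries and 9 with IUO 4 left out and the length trend removed (13.5% of all genes). For IUO against Saline they numbered 1 with the length trend removed (4.49% of all genes), 6 with covariates (4 below 0), 7 without the raised striatal libraries (2 below 0, median 0.20) and 5 with IUO 4 left out and the trend removed (8.003% of all genes; 29 below 0). For IUO against PNO they numbered 0 with covariates (4 below 0), 22 without the raised striatal libraries and 1 with IUO 4 left out and the trend removed (4.52% of all genes, with 8 members below 0). Members below 0 in that comparison numbered 4 with the trend removed and 2 without the raised bulb libraries. Leaving out each library in turn gave, for PNO against Saline, 2 to 8 members at an unadjusted p under 0.05, 34 to 35 below 0 and medians of -0.27 to -0.16. For IUO against Saline it gave 0 to 9, 10 to 34 and -0.16 to 0.08, and for IUO against PNO 0 to 14, 0 to 6 and 0.06 to 0.26. In IUO against Saline the sign turned for Ndufa9 (4.7e-04) and Ndufc2 (0.012) with covariates, for Ndufc2 (0.060) without the raised striatal libraries, and for Ndufb2 without IUO 4 (-0.027, against up to 0.32 with another library left out) and with the trend removed as well (-0.042). For Ndufs1 in IUO against PNO, near 0 throughout, it turned with IUO 4 left out and the trend removed (0.0013), and leaving out each library gave -0.051 to 0.051, above 0 without PNO 1, PNO 2, IUO 3 or IUO 4. Of single-gene values 315 kept direction and side of the threshold and 10 turned. The 315 include the member list without 2 uncertain rows, which reuses the main fit and could not turn. The causes were not tested. With the replicate block, 35, 19 and 1 members were below 0, medians were -0.20, -0.01 and 0.19, 0 members passed, and the block changed no call.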
